A study of Mus musculus with 16 samples.

Results

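The 10 genes described here are Notch receptors (Notch1, Notch2, Notch3), their ligands (Dll1, Dll3, Dll4, Jag1) and transcriptional targets of the pathway (Hes1, Hes5, Hey1), followed across the 4 conditions of a let-7a and Sfpq experiment in P19 cells, a mouse embryonal carcinoma line. Members were taken as every array probe whose gene name, or older synonym checked through its transcript accession, is 1 of these symbols, which gave 14 of 55681 probes, printed on 23 spots. All 10 members had a probe that passed the filter on dim signals, out of 18357 genes tested. Control cells, cells given a let-7a mimic (let-7a), cells given siRNAs against Sfpq (siSfpq) and cells given both (let-7a + siSfpq) were transfected for 48 h, with siRNAs and mimics at 24 nM, and their total RNA was hybridized to 1-colour Agilent arrays, 4 per condition. According to the methods, siSfpq is a pool of 4 siRNAs. All groups are the same cell line. The methods speak of replicates of the transfected cells, 3 where the labels number 4, and do not tie an array to a culture, so that p-values measure the spread between these samples, which may in part be technical. In these bulk samples, fewer cells that express a gene and less RNA per cell cannot be told apart.

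Notch receptors are cut when a ligand on a neighbouring cell pulls on them, and the freed intracellular part enters the nucleus, where it joins Rbpj and Mastermind proteins to switch on Hes and Hey repressors. These repressors hold back proneural genes such as Neurog2, which in turn switch on Delta ligands, a feedback loop known as lateral inhibition that spaces out neurons in the embryonic nervous system. Dll3 differs from the other ligands in that it stays largely inside the cell and does not activate receptors on neighbours. Sfpq is a nuclear RNA-binding protein of the paraspeckle. Notch2 is in the set for a further reason, namely, that the study lists a let-7a-guided Ago2 site near a site of Sfpq on its transcript.

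The miRNA that was added is shown because its seed, bases 2 to 8 and printed in capitals, is what pairs with target transcripts. It is given 5′ to 3′ from RefSeq (GRCm38.p6, chr13:48538239-48538260, minus strand).
mmu-let-7a-5p: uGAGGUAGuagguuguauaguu
The letters that pair with this seed, CTACCTC on the sense strand, were in 0 of the 14 member probes and in 0.366% of the 55681 probes. The probes are short pieces of each transcript, so this says nothing of the rest of the transcript.

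Levels are log2 intensities, quantile normalized between arrays, and a change is a difference between 2 such levels, so that 1 unit is a 2-fold difference in signal. Between 33733 and 38464 of 59305 spots per array were well above background. Arrays 1 and 2 of a condition differed by about as little as repeat spots of a probe (medians of 0.047 to 0.062 against 0.054 to 0.056 log2 units), so their mean stands for a single sample and each condition has 3 samples. This number limits the precision, and no exact permutation p below 0.1 is possible with 3 samples against 3. Sfpq mRNA was at 12.07, 11.98 and 11.98 in control and at 10.55, 11.46 and 10.62 in siSfpq (replicates 1 and 2 averaged, then replicates 3 and 4). Its change was -1.13 (standard error 0.19, limma adjusted p = 0.00728), and the fall in replicate 3, by 0.52, was the smallest of the 3. In cells given both, Sfpq was at 11.31, 11.49 and 11.41. This was below all let-7a samples, with a change of -0.58 (limma adjusted p = 0.142), and 0.52 above siSfpq (limma adjusted p = 0.0993, 0.0383 with the replicate number as a block), higher in 3 of 3 replicates. The groups overlapped, and the difference did not pass the test without the block. Its part in the comparisons between the groups given siRNAs and in the interactions was not tested. Array 3 stood apart from the others of its condition in all 4 conditions, with median differences of 0.179 to 0.320 log2 units, largest in siSfpq, against 0.079 to 0.114 between array 4 and arrays 1 and 2. The siSfpq sample of replicate 3 also differed from the others for several members, and values without that sample are given where they change a call, Dll4 aside. That sample was singled out by its values, and leaving it out keeps replicate 3 of the other conditions and lowers the shared spread. Values of limma adjusted p without it therefore only describe how calls depend on this sample. Of 10 embryonal carcinoma markers, 9 were well above background on all arrays of every condition, and Zfp42 was not. All 10 neuron markers were also above background, and they moved with the conditions as described further below.

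Dll3 was the only member called in more than 1 comparison, and it rose with let-7a and fell with siSfpq. In control, its level was 9.09, 8.76 and 8.97, in the same order of replicates. With let-7a it was 10.86, 9.77 and 11.00. With siSfpq it was 7.29, 8.14 and 7.27, and with both it was 9.20, 8.72 and 9.27. All let-7a samples therefore lay above all other samples and all siSfpq samples below them, whereas cells given both overlapped with control. Dll3 rose 3.03-fold with let-7a against control (log2 change 1.60, standard error 0.32, limma adjusted p = 0.0127). It fell 2.59-fold with siSfpq against control (log2 change -1.37, standard error 0.32, limma adjusted p = 0.0211). Adding siSfpq to let-7a lowered it 2.79-fold (log2 change -1.48, limma adjusted p = 0.0327), and adding let-7a to siSfpq raised it 2.82-fold (log2 change 1.49, limma adjusted p = 0.0191). With both against control, the change was 0.12 (95% interval -0.58 to 0.82). These comparisons share samples, so the values are set side by side and are not independent of each other.

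The interaction, the let-7a effect in siSfpq cells less the let-7a effect in control transfected cells, was -0.11 for Dll3 (95% interval -1.10 to 0.89, limma adjusted p = 0.996), an interval too wide to say that the effects add up. The direction of each of the 4 changes was the same in all 3 replicate numbers. Within slide 1, which holds replicates 1 and 2, the let-7a and siSfpq changes were 1.77 and -1.80, and on slide 2 they were 1.0 and -0.62 for replicate 3 and 2.03 and -1.70 for replicate 4. Dll3 has 2 probes, and the values above come from the one with no missing array (mm9, chr7:29078763-29078822, minus strand). The other (mm9, chr7:29079061-29079120) lost its siSfpq value of replicate 3 to an outlier flag. It gave changes of 1.25 with let-7a (limma adjusted p = 0.0169) and -1.10 with siSfpq (limma adjusted p = 0.0312) in the fit of all probes, where the siSfpq group has only 2 samples. Both probes thus rose and fell together. Whether these positions are exonic was not looked up, as no annotation of mm9 was used. When only the 2 groups compared entered the fit, the limma adjusted p was 0.0587 for siSfpq against control, 0.0604 for adding siSfpq to let-7a and 0.0631 for adding let-7a to siSfpq, so the call was lost in each of these. With no filter on dim probes, that for siSfpq added to let-7a was lost (limma adjusted p = 0.0749). Without the siSfpq sample of replicate 3, the siSfpq change was -1.66 (limma adjusted p = 0.00252) and the change on adding let-7a was 1.78 (limma adjusted p = 0.00201). Leaving out certain other single samples ended calls of Dll3. The let-7a call was lost without control replicate 3 (limma adjusted p = 0.0521), let-7a replicates 1 and 2 (0.0724) or let-7a replicate 4 (0.0745). The siSfpq call was lost without control replicates 1 and 2 or 4, or siSfpq replicates 1 and 2 or 4 (limma adjusted p from 0.0737 to 0.0998). For siSfpq added to let-7a it was lost without control replicates 1 and 2 or 4, let-7a replicates 1 and 2 or 4, or any sample given both (limma adjusted p from 0.0529 to 0.179). For let-7a added to siSfpq it was lost without replicates 1 and 2 or replicate 4 of siSfpq or of both (limma adjusted p from 0.0733 to 0.0939).

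**Figure D1:**
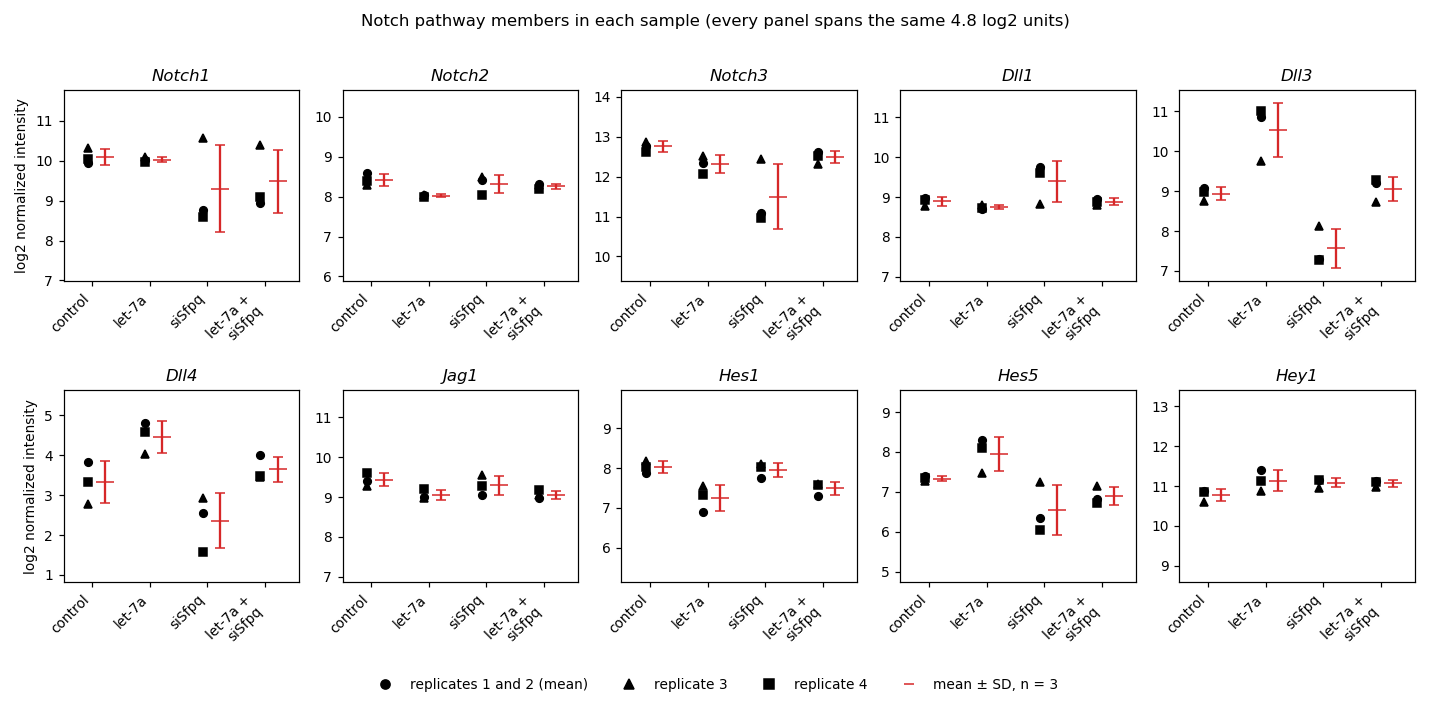
Log2 normalized intensity of each of the 10 members (1 panel each) in the 4 conditions, with black symbols for the 3 samples of a condition (circle, replicates 1 and 2 averaged; triangle, replicate 3; square, replicate 4) and the mean ± SD in red. Dll3 lies highest in let-7a and lowest in siSfpq, Hes1 lies lower in let-7a than in control, and the siSfpq triangle of Notch1, Notch3, Dll1, Dll3 and Hes5 lies apart from the other siSfpq samples.

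Dll1, the ligand that activates receptors on neighbouring cells in the early neural tube, was not called in any comparison. It was at 8.99, 8.76 and 8.91 in control, at 8.70, 8.80 and 8.72 with let-7a, at 9.76, 8.81 and 9.60 in siSfpq cells, and at 8.96, 8.79 and 8.88 with both. Replicates 1 and 2 and replicate 4 of siSfpq lay above every other sample, and replicate 3 of siSfpq lay among the controls. With siSfpq against control the change was 0.50 (standard error 0.20, limma adjusted p = 0.115), and 0.0382 with the replicate number as a block. Adding let-7a to siSfpq gave -0.51 (limma adjusted p = 0.121, 0.0387 with the block). Without the siSfpq sample of replicate 3, the siSfpq change of Dll1 was 0.79 (limma adjusted p = 4.78e-04) and the change on adding let-7a was -0.80 (limma adjusted p = 5.62e-04). The interaction of Dll1 was then -0.65 (limma adjusted p = 0.0284). Its value comes from 1 probe on 10 spots, and a second probe was not well above background on any array.

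Dll4, a ligand best known from blood vessels, was dim. Its level was 3.84, 2.79 and 3.34 in control, 4.8, 4.03 and 4.57 with let-7a, 2.55, 2.93 and 1.59 in siSfpq cells, and 4.0, 3.46 and 3.48 with both. It was well above background on 4 of 4 let-7a arrays, on 1 of 4 control arrays, on 0 of 4 siSfpq arrays and on 1 of 4 arrays with both. It therefore passed the filter through let-7a alone, the group where it is highest, and no test of it is given as a result. The let-7a samples lay above the control samples, 3 of 4 of whose arrays were not well above background. For siSfpq only a bound can be given, set by the dimmest probes called well above background. On it the mean of the let-7a samples was at least 1.29-fold higher than that of the siSfpq samples. The bound was at 4.10, above the let-7a sample of replicate 3 (4.03), so this fold is one of means only. Against control and let-7a + siSfpq this bound gives no fold.

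Jag1, a ligand of the Serrate class, was at 9.40, 9.29 and 9.62 in control, 8.99, 8.98 and 9.21 with let-7a, 9.06, 9.54 and 9.28 in siSfpq cells, and 8.97, 9.05 and 9.17 with both. The let-7a samples and those with both lay below all controls, while siSfpq overlapped with each. The changes against control were -0.37 with let-7a (standard error 0.15, limma adjusted p = 0.163) and -0.37 with both (limma adjusted p = 0.312). With the block these limma adjusted p were 0.0449 and 0.0812.

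Notch3 was the only receptor that passed the test, with siSfpq against control. It was at 12.77, 12.88 and 12.63 in control, 12.35, 12.53 and 12.07 with let-7a, 11.09, 12.45 and 10.96 in siSfpq cells, and 12.61, 12.32 and 12.53 with both. The siSfpq samples lay below the controls, by far in replicates 1 and 2 and in replicate 4 and by less in replicate 3. Notch3 fell 2.39-fold with siSfpq (log2 change -1.26, standard error 0.31, limma adjusted p = 0.0236). Adding let-7a to siSfpq gave 0.99 (limma adjusted p = 0.0614), and with the block the limma adjusted p was 0.0208. Without the siSfpq sample of replicate 3, the siSfpq change was -1.73 (limma adjusted p = 2.72e-05) and the change on adding let-7a was 1.46 (limma adjusted p = 6.95e-05). Without any 1 control sample, or without siSfpq replicates 1 and 2 or 4, the siSfpq call was lost (limma adjusted p from 0.0620 to 0.112). It was also lost in a fit to control and siSfpq alone (limma adjusted p = 0.0997) and when dim probes were not filtered (limma adjusted p = 0.0560).

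With let-7a alone, Notch3 changed by -0.44 (limma adjusted p = 0.481), lower in 3 of 3 replicates, and by -0.27 with both (limma adjusted p = 0.865). The let-7a change had a limma adjusted p of 0.0436 when the siSfpq sample of replicate 3, which enters it only through the shared spread, was left out. The interaction was 1.43 (standard error 0.43), positive in 3 of 3 replicates, with an unadjusted p of 0.00665 in limma and an adjusted p of 0.754 in limma. Without the siSfpq sample of replicate 3 it was 1.90 (limma adjusted p = 0.00131), so that the call turns on this sample. By replicate number, from the average of 1 and 2 to 3 and 4, the interaction was 1.94, 0.22 and 2.12.

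Notch1, the receptor that acts in neural progenitors, was at 9.94, 10.31 and 10.04 in control, 10.02, 10.08 and 9.96 with let-7a, 8.76, 10.56 and 8.58 in siSfpq cells, and 8.95, 10.39 and 9.09 with both. In both groups given siSfpq, replicate 3 was above 10 and the other samples were at or below 9.09, whereas no such gap was seen in control and let-7a. The siSfpq change was -0.80 with a standard error of 0.47 (limma adjusted p = 0.282). Within replicate numbers it was -1.19, 0.25 and -1.46. Without the siSfpq sample of replicate 3 it was -1.43 (limma adjusted p = 0.00815), and with let-7a against control Notch1 changed by -0.08 (95% interval -1.11 to 0.96).

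Notch2, on whose transcript the study lists the let-7a site near Sfpq, was not called in any comparison. The study tested let-7a silencing and its rescue by Sfpq knockdown over a set of transcripts that includes Notch2, which a test of 1 gene does not repeat. The level of Notch2, the mean of 2 probes, was 8.59, 8.30 and 8.39 in control, 8.05, 8.04 and 7.98 with let-7a, 8.41, 8.50 and 8.05 in siSfpq cells, and 8.31, 8.29 and 8.20 with both. All let-7a samples lay below all samples of control and of let-7a + siSfpq. The let-7a change was -0.40 (95% interval -0.71 to -0.10, limma adjusted p = 0.116), and with the block the limma adjusted p was 0.0251. Adding siSfpq to let-7a gave 0.24 (95% interval -0.07 to 0.54, limma adjusted p = 0.450), higher in 3 of 3 replicates, and 0.167 with the block. By probe, the let-7a change was -0.32 for the one at chr3:97953914-97953973 (mm9, limma adjusted p = 0.0850) and -0.48 for the one at chr3:97951233-97951292 (mm9, limma adjusted p = 0.427), which was well above background on 3 of 4 siSfpq arrays. The interaction of Notch2 was 0.35 (95% interval -0.08 to 0.78, limma adjusted p = 0.820). The probe at chr3:97953914-97953973 was bright, with a control mean of 11.85, and the other was dim, at 5.01. On the bright probe the interaction was 0.42 ± 0.13 (standard error), and adding siSfpq to let-7a gave 0.26 ± 0.09. Neither passed the test there (limma adjusted p = 0.872 and 0.225). On the dim probe these values were 0.27 ± 0.38 and 0.22 ± 0.27, which did not pass either. The wider spread was thus that of the dim probe.

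Hes1, a repressor whose mRNA oscillates in progenitor cells, passed the test with let-7a against control. It was at 7.87, 8.18 and 8.02 in control, 6.91, 7.55 and 7.32 with let-7a, 7.74, 8.09 and 8.02 in siSfpq cells, and 7.29, 7.60 and 7.58 with both. The value of 6.91 rests on array 1 alone, since the spot on array 2 was flagged as an outlier. Every sample given let-7a lay below every sample that was not. Hes1 fell 1.70-fold with let-7a (log2 change -0.77, standard error 0.18, limma adjusted p = 0.0286). Adding let-7a to siSfpq gave -0.46 (limma adjusted p = 0.127) and both against control -0.54 (limma adjusted p = 0.227), and with the block these became 0.00866 and 0.00926. With siSfpq alone the change was -0.08 (95% interval -0.48 to 0.33), and the interaction was 0.31 (95% interval -0.26 to 0.88). The let-7a call was lost without any 1 control sample, let-7a replicates 1 and 2 or let-7a replicate 4 (changes of -0.85 to -0.59, limma adjusted p from 0.0578 to 0.133).

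Hes5, the repressor most closely tied to Notch in neural progenitors, had the opposite sign to Hes1 with let-7a. It was at 7.39, 7.26 and 7.34 in control, 8.29, 7.47 and 8.09 with let-7a, 6.34, 7.24 and 6.03 in siSfpq cells, and 6.82, 7.15 and 6.72 with both. The let-7a samples lay above, and the other 2 groups below, all controls, by a small margin in replicate 3. None of these changes passed the test, with 0.62 for let-7a (limma adjusted p = 0.263), -0.79 for siSfpq (limma adjusted p = 0.0923) and -1.05 for adding siSfpq to let-7a (limma adjusted p = 0.0803). With the block the last had a limma adjusted p of 0.0401. Hes5 had a siSfpq change of -1.15 when the siSfpq sample of replicate 3 was left out (limma adjusted p = 0.00378). The change on adding let-7a was then 0.71 (limma adjusted p = 0.0411), and that on adding siSfpq to let-7a had a limma adjusted p of 0.0141.

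Hey1, a Hes relative known from heart and vessels, was at 10.88, 10.60 and 10.86 in control, 11.39, 10.89 and 11.13 with let-7a, 11.16, 10.94 and 11.16 in siSfpq cells, and 11.12, 10.97 and 11.10 with both. All 3 treated groups lay above all controls, by 0.36, 0.31 and 0.29 in the mean (limma adjusted p = 0.153, 0.147 and 0.453). With the block the limma adjusted p was 0.0121 for let-7a, 0.0156 for siSfpq and 0.0563 for both. With arrays scaled to their 75th percentile, the siSfpq change was 0.39 (limma adjusted p = 0.0447).

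**Figure D2:**
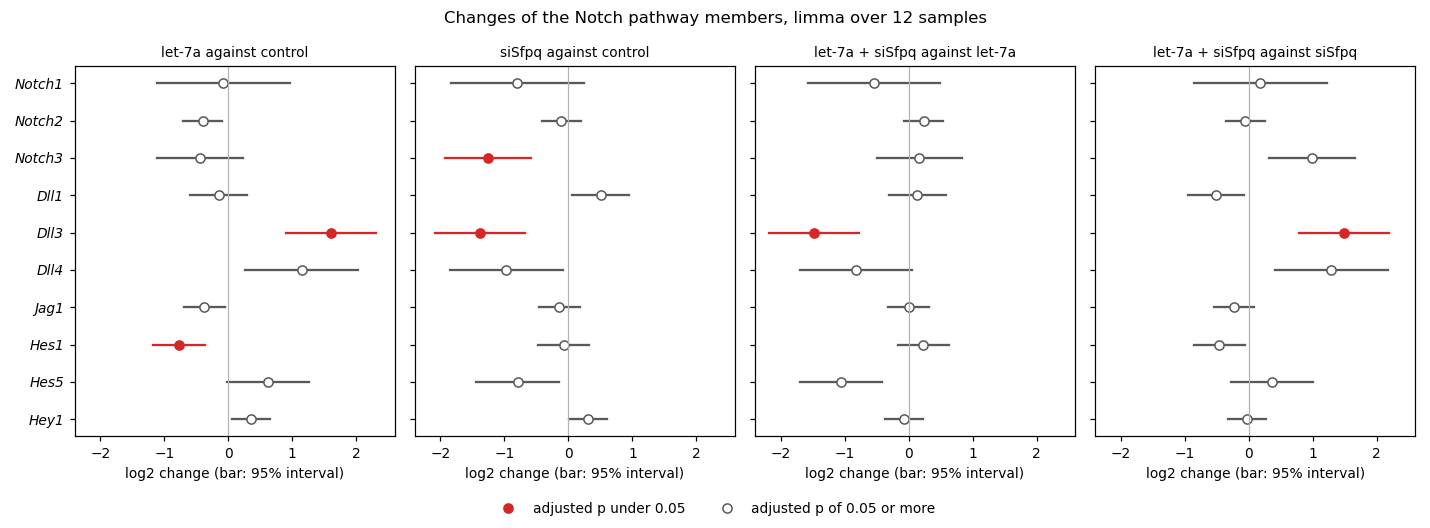
Log2 change of each member with its 95% interval in 4 comparisons (1 panel each), filled red where the limma adjusted p is under 0.05. The siSfpq levels behind the Dll4 intervals were not well above background. Dll3 is called in all 4 panels, Hes1 with let-7a and Notch3 with siSfpq, and the other intervals belong to changes that did not pass the test.

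Over the 10 members, 2 passed the test with let-7a against control (Dll3 higher, Hes1 lower), where 6.98% of all genes tested passed. With siSfpq against control 2 passed (Dll3 and Notch3, both lower), against 13.8% of all genes. Dll3 alone passed when siSfpq was added to let-7a, against 3.16%, and when let-7a was added to siSfpq, against 10.4%. With both against control no member passed, against 1.55% of all genes. An unadjusted p under 0.05 in limma was found there for 2 members, Jag1 and Hes1, and for 2164 of the 18357 genes tested. No member had an interaction that passed, as was the case for all genes (0%), and an unadjusted p under 0.05 in limma was found for 1 member, Notch3, and for 1164 of all genes. Nothing particular to the members is drawn from these counts of 1 or 2 in 10 genes. Without Dll4, the median change of 9 members was -0.15 with let-7a and -0.14 with siSfpq (-0.11 and -0.47 with it), beside -0.04 and 0.01 over all genes.

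With Dll4 set aside, groups did not overlap for 7 of 9 members with let-7a against control, where this held for 30.1% of all genes. The exceptions were Notch1 and Dll1. With siSfpq against control this held for 4 members against 29.5% of all genes, with siSfpq added to let-7a for 3 against 23.2%, with let-7a added to siSfpq for 2 against 25.3%, and with both against control for 5 against 20.2%.

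Samples of 1 replicate number deviated together from their condition means over all genes, so that the fit with the number as a block also bears on the members. Dll4 is set aside in these counts, since it was not well above background on any siSfpq array. With the block, 5 of 9 members passed with let-7a (Notch2, Dll3, Jag1, Hes1 and Hey1), where 21.7% of all genes passed. With siSfpq 4 passed (Notch3, Dll1, Dll3 and Hey1) against 37.8%, and 2 passed when siSfpq was added to let-7a (Dll3 and Hes5) against 13.2%. When let-7a was added to siSfpq 4 passed (Notch3, Dll1, Dll3 and Hes1) against 33.3%. With both against control only Hes1 passed, against 8.16%, and no interaction of a member passed, against 0.0218%. With no block and the siSfpq sample of replicate 3 left out, 5 of the 9 passed with siSfpq (Notch1, Notch3, Dll1, Dll3 and Hes5), where 34.9% of all genes did. Then 4 passed when let-7a was added to siSfpq, against 31%, and the interaction passed for 2, Notch3 and Dll1, against 7.59%.

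**Figure D3:**
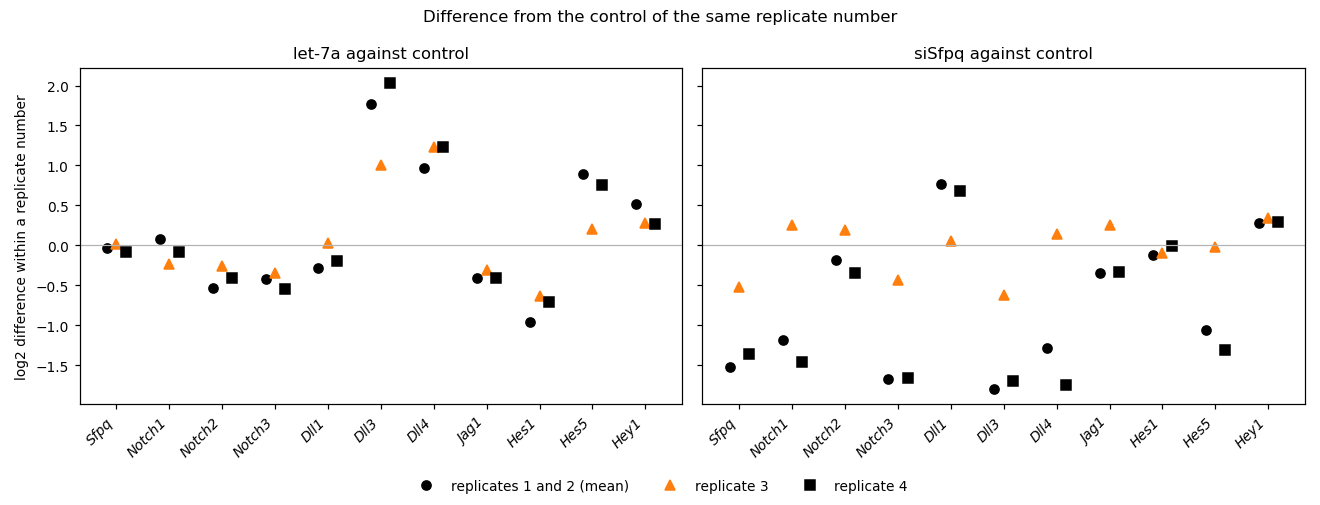
Log2 difference from the control of the same replicate number for Sfpq and the 10 members, with let-7a (left) and with siSfpq (right), with circles for replicates 1 and 2 averaged, orange triangles for replicate 3 and squares for replicate 4. With siSfpq the triangle of Sfpq is at -0.52, those of Dll1 and Hes5 lie near 0, and those of Notch1, Notch2 and Jag1 lie on the other side of 0 from the other symbols. With let-7a the 3 symbols of most members lie on the same side of 0. The siSfpq levels behind the Dll4 symbols were not well above background, so no direction is read from them.

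The rest of the pathway was followed through 72 further genes in lists by role, of which 70 were tested. With let-7a, 3 rose and 2 fell, where 6.98% of all genes passed, and with siSfpq 6 rose and 12 fell, where 13.8% did. When siSfpq was added to let-7a 1 rose and 2 fell (3.16% of all genes), when let-7a was added to siSfpq 5 rose and 2 fell (10.4%), and with both against control 2 rose and none fell (1.55%). The replicate block called more genes in each of the 6 lists with let-7a and with siSfpq, where it called 21.7% and 37.8% of all genes. In the list of glycosylation and ligand uptake it called 3 higher and 2 lower with let-7a, and 3 higher and 5 lower with siSfpq. The median change of the 70 was 0.065 with let-7a and -0.0012 with siSfpq.

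Among 8 other ligands and receptors, 1 rose with let-7a, and 1 rose and 2 fell with siSfpq. Cntn1, an adhesion protein reported as a Notch ligand, changed by 0.86 with let-7a (limma adjusted p = 0.0131) and by -1.19 with siSfpq (limma adjusted p = 0.00546). Mfap2, a microfibril protein, changed by -1.23 with siSfpq (limma adjusted p = 0.0210), and its relative Mfap5 by 1.42 (limma adjusted p = 0.0460). Of 12 genes that glycosylate the receptor or help ligands to be taken up, none passed with let-7a and 2 fell with siSfpq. These were the Fringe enzymes Mfng and Lfng, which add sugars to Notch and so set which ligand it answers to. Mfng changed by -1.60 (limma adjusted p = 0.0166) and Lfng by -2.0 (limma adjusted p = 0.0378). Lfng was well above background on only 1 of 4 siSfpq arrays, so the size of its change is uncertain. The third Fringe gene, Rfng, changed by -0.33 (limma adjusted p = 0.351, and 0.0349 with the replicate number as a block). Mfng rose by 1.57 when let-7a was added to siSfpq (limma adjusted p = 0.0212), where Eogt, another enzyme of this list, fell by 0.58 (limma adjusted p = 0.0436). Of 9 genes of receptor cleavage tested, only Adam10, the protease that makes the first cut after ligand binding, passed, with -0.54 for siSfpq (limma adjusted p = 0.0376) and 0.55 when let-7a was added to it (limma adjusted p = 0.0430).

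Among 12 inhibitors and turnover genes, 1 rose and 1 fell with let-7a, and 3 rose and 3 fell with siSfpq. Itch, a ubiquitin ligase that sends Notch to degradation, was called in 4 of the comparisons. It was at 10.53 ± 0.055 (SD, n = 3) in control, 9.92 ± 0.16 with let-7a, 10.99 ± 0.029 with siSfpq and 10.47 ± 0.082 with both. It changed by -0.61 with let-7a (limma adjusted p = 0.00498) and by 0.46 with siSfpq (limma adjusted p = 0.0172). With siSfpq, the Deltex gene Dtx3l changed by 1.11 (limma adjusted p = 0.0105). Its relative Dtx4 changed by -0.76 (limma adjusted p = 0.0103). Of 22 genes of the nuclear complex and its co-repressors, 1 rose and 1 fell with let-7a, and 1 rose and 4 fell with siSfpq. The siSfpq change of the Mastermind co-activator Maml2 was -1.16 (limma adjusted p = 0.0146). That of its relative Maml3 was -0.82 (limma adjusted p = 0.0159), and Maml3 rose by 0.71 with let-7a (limma adjusted p = 0.0333). Tle6, a relative of the Groucho co-repressors, rose by 1.42 with siSfpq (limma adjusted p = 0.0323) and by 1.81 with both (limma adjusted p = 0.0405). Of 7 other Hes and Hey genes tested, none passed with let-7a and Bhlhe40, a stress-responsive repressor, rose with siSfpq by 0.54 (limma adjusted p = 0.0437) and with both by 0.96 (limma adjusted p = 0.0130). Hes6, which antagonizes Hes1, rose by 0.53 when let-7a was added to siSfpq (limma adjusted p = 0.0332).

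Proneural bHLH genes, the targets of Hes repression and activators of Delta ligands, were followed as well. Of 9 tested, 5 were called higher with let-7a (6.98% of all genes were called in this comparison), 5 lower with siSfpq (13.8%) and 6 higher when let-7a was added to siSfpq (10.4%). Neurog1 and Olig2 passed the filter through let-7a alone, neither of them called with let-7a or siSfpq against control. Neurod1 passed only through the groups given let-7a, where it was highest. Its mean was 6.63 with let-7a and 4.74 with both, against 3.88 in control and 2.24 with siSfpq. It is among the 9 tested, and no call of it is read as a result. Only 2 of the 9 were well above background on all siSfpq arrays, so the sizes of the siSfpq changes are uncertain. Neurog2 rose by 1.60 with let-7a (limma adjusted p = 0.0192) and changed by -2.69 with siSfpq (limma adjusted p = 0.00463), where 3 of 4 arrays were well above background. Neurod2 rose by 3.53 with let-7a (limma adjusted p = 6.69e-04) and was well above background on 2 of 4 siSfpq arrays. Neurod4 rose by 2.42 with let-7a (limma adjusted p = 4.06e-04), and was well above background on 0 of 4 siSfpq arrays, so that control was at least 1.57-fold higher than siSfpq.

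Neuron markers moved beside these genes, 8 of 10 higher with let-7a and 7 of 10 lower with siSfpq. Their summed intensity ranged from 41513 to 49151 in control, from 55795 to 74989 with let-7a, from 23222 to 31935 with siSfpq and from 35539 to 38262 with both. Of 9 embryonal carcinoma markers tested, 3 fell with let-7a, while 2 rose and 1 fell with siSfpq. Their part in the changes of Dll3 was not tested. Endothelial markers were present in part, with Cdh5 and Tie1 in no condition well above background on every array. The summed intensity of the 4 tested ranged from 590 to 662 in control and from 795 to 908 with let-7a, from 626 to 730 with siSfpq and from 703 to 832 with both. Kdr rose by 0.57 with let-7a (limma adjusted p = 0.0276), and Tek changed by -2.19 with siSfpq (limma adjusted p = 0.0443). Like Esam, Tek was well above background on only some or none of the siSfpq arrays, so the size of its change is uncertain. The part of these markers in the levels of Dll4 was not tested. Of 8 glial markers 6 were tested, none of which passed with let-7a, and 2 fell with siSfpq. Of 10 mesendoderm markers 8 were tested, of which 2 fell with let-7a and 1 rose with siSfpq.

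**Figure D4:**
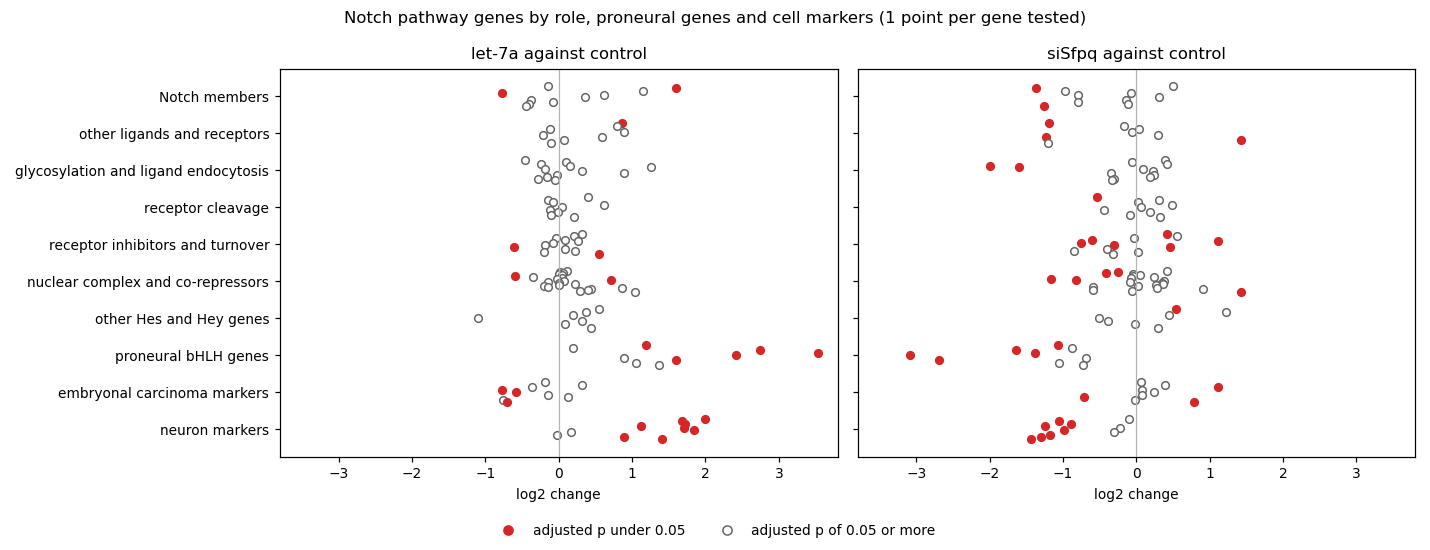
Log2 change of every tested gene of the members, of 6 pathway lists, of the proneural bHLH genes and of the embryonal carcinoma and neuron markers (1 point per gene), with let-7a (left) and siSfpq (right), red where the limma adjusted p is under 0.05. The proneural genes and neuron markers lie mostly to the right with let-7a and to the left with siSfpq, whereas the pathway lists are spread on both sides of 0.

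Promoter letters of the members are shown because Rbpj acts on Hes promoters and proneural factors on those of Delta genes. RefSeq windows of 250 bases before to 50 bases after the gene start (GRCm38.p6) were found for 8 of the 10 members, in 9 windows, and Hes1 and Hey1 were not searched. Hes5 held the letters GTGGGAA, the core that Rbpj binds, at 2 places, searched on both strands. Such letters were in 6.38% of 32851 windows, from which those of 1 chromosome with no member were left out, and 2 or more matches in 0.256%. No window of the other 7 members searched held them. The matches are in capitals, the first as read on the other strand, and start 226 and 83 bases before the gene start.
Hes5, chr4:154960687-154960713: ggcgagcgcgTTCCCACagcccggaca
Hes5, chr4:154960830-154960856: gccgccgagtGTGGGAAcggccgcggc
The letters CAGCTG, an E-box of the kind that proneural factors bind, read the same on both strands. They were in 1 window each of Dll1, Dll3 and Jag1 and in 16.3% of the 32851 windows, and did not overlap with the other letters. The Dll3 match starts 7 bases before the gene start, that of Dll1 132 bases and that of Jag1 82 bases before it. These 3 genes, all on the minus strand, differed in their changes as given above.
Dll3, chr7:28301777-28301802: cggcatccagCAGCTGcgactcctga
Dll1, chr17:15377049-15377074: cattaccataCAGCTGagcgcacaaa
Jag1, chr2:137116587-137116612: gcgtttcatgCAGCTGatctgaaagg

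The genes most like each member were sought among 13609 other genes well above background on all arrays, by the smallest root mean square difference of levels centred on the gene mean over 12 samples. For Dll3, which itself varied by 1.12 around its mean, these were Samd14 (0.17), Scrt1 (0.17), a neuronal zinc finger repressor, and Rcan2 (0.20). For Notch3, which varied by 0.59, they were Lox (0.19), Glcci1 (0.20) and Farp2 (0.21), and for Notch1 (0.66) Cmya5 (0.12), Mei1 (0.17) and Rax (0.19). For Hes1 (0.37) they were Mrpl19 (0.13), Nfkb1 (0.14) and Kti12 (0.14), and for Hes5 (0.62) Galnt16 (0.14), Trim9 (0.19) and Ggt7 (0.20). Members with a spread of only 0.19 to 0.33 had nearest genes at 0.07 to 0.10. These were Desi1, Rps23rg1 and Cd3eap for Notch2, Mtor, Zfp346 and Hipk3 for Dll1, Gprc5a, Hunk and Dcun1d4 for Jag1, and Lztr1, Atg13 and Tef for Hey1. No nearest genes are given for Dll4, most of whose levels were not well above background. These are descriptions over samples that share conditions, and the spread that all genes share by replicate number enters them.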

How the data were processed

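Messenger RNA was measured on 16 arrays. The authors deposited scanner intensities, background-subtracted by Agilent Feature Extraction and not normalized between arrays per the file headers, and a table of log2 values, quantile normalized with limma per the methods. That table follows log2 of the median spot intensity (medians of 6.23 to 6.24 per array).

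Here the processed intensities were put on the log2 scale and quantile normalized (limma 3.58.1, R 4.3.3). Outlier spots were dropped and repeat spots averaged. A probe was kept where some condition had all its 4 arrays well above background. Probes of a symbol were averaged, and a probe with a missing sample was used only where no complete one existed. Region-named probes were left out. A limma model with an intensity trend was fitted to 12 samples, and genes with a two-sided Benjamini-Hochberg adjusted p under 0.05 were called. Fit and calls were tested on simulated data. Deviations of samples with the same replicate number, taken from the titles, correlated over genes in all 18 pairs (r = 0.28 to 0.71), so values with the number as a block are printed beside those of the unblocked fit where they change a call. Members and lists were chosen with earlier results of these data known. Named are all members, up to 3 called genes per list with the largest change, Sfpq and the 3 genes most like each member. Figures were drawn with matplotlib 3.10.9 in Python 3.11.15.

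Alternatives were other scalings, background corrections and filters, slide or replicate number as a block, leaving out replicates or single samples, 16 arrays as separate samples, the brightest probe of a gene, the authors' values, fits to the compared groups alone and no trend.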

Additional observations from a re-analysis of the deposited data

How the results depend on the processing

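Each of the 26 alternatives kept the direction of Dll3, Hes1 and Notch3 in the comparisons in which they were called. Of 1544 recomputed member values, 70 passed the test newly and 46 no longer passed. A further 51 changed sign with no call on either side, and 3 of these moved by more than their standard error. These were -0.093 for Dll1 when siSfpq was added to let-7a, with no filter on dim probes, and 0.10 for Notch2 when let-7a was added to siSfpq, with the brightest probe and with probes well above background on all 16 arrays. The main counts of members called were 2 for let-7a, 2 for siSfpq, 1 for adding siSfpq to let-7a, 1 for adding let-7a to siSfpq, and 0 for both against control and for the interaction. In the same order, the replicate block gave 6, 4, 2, 5, 1 and 0, and 16 arrays as separate samples gave 6, 6, 2, 5, 2 and 1. Of all 18357 genes, again in this order, separate arrays called 3641, 6617, 2611, 5954, 1452 and 181. The block called 3983, 6933, 2416, 6119, 1498 and 4. Counts here include Dll4, whose calls are not results, as under the blocks, separate arrays and leave-outs. Without a filter on dim probes, 1 member was called with siSfpq and 0 when siSfpq was added to let-7a. Scaling to the 75th percentile gave 3 for siSfpq, Hey1 being added. The slide block gave 3 when let-7a was added to siSfpq. Normexp and the authors' processed values each gave 2 when siSfpq was added to let-7a. With only the groups compared, 0 were called for siSfpq against control, for adding siSfpq to let-7a and for adding let-7a to siSfpq. Leaving out replicates or single samples gave 0 to 7 for let-7a against control, 0 to 7 for siSfpq against control, 0 to 4 for let-7a + siSfpq against let-7a, 0 to 6 for let-7a + siSfpq against siSfpq, 0 to 2 for let-7a + siSfpq against control and 0 to 3 for the interaction of let-7a and siSfpq. Without replicate 3 in all conditions the highest counts were reached, when 5538 and 9045 of all 18357 genes were called for let-7a and siSfpq. In that setting 4918 were called for adding siSfpq to let-7a and 8672 for adding let-7a to siSfpq. For both against control it was 3365, and for the interaction 4134. Without replicate 4, or without replicates 1 and 2, no member and at most 3 of all genes were called in a comparison. Dll3 with let-7a passed in 10 of these 15 settings (1.37 to 1.99), Hes1 in 8 (-0.91 to -0.59), and with siSfpq Dll3 passed in 9 (-1.75 to -1.16) and Notch3 in 8 (-1.73 to -0.99). The cause of these differences was not tested. Signal over background limits Dll4, most of all in siSfpq.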
